A study of Danio rerio with 28 samples.

Results

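Single cells that the labels name as germ cells, from tdrd6a mutant and wild-type zebrafish embryos at 3.5 hours post fertilization (hpf), were compared plate by plate. Columns of the deposited table that belonged to 3.5 hpf plates were taken, and plates with 10 or more cells were kept, which left 465 of the 1203 cells of the table. These were 264 mutant cells on plates 1 to 5 (74, 67, 46, 61 and 16 cells) and 201 wild-type cells on plates 2 to 5 (72, 49, 66 and 14 cells). Wild-type plate 1, with 4 cells, was left out and is named where it bears on a result.

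Per the labels, the mutant group came from mothers that were maternal-zygotic tdrd6a-/-, the term for animals that lack the gene product from their mother as well as from their own genome, and the other group from wild-type mothers. The mothers' reporter, kop::egfp-f-nos1-3'UTR, makes a farnesylated green fluorescent protein that marks primordial germ cells. The design text can be read as giving it to both genotypes or to the wild type alone, and the fathers are not described. Cells were sorted singly into Trizol, and their RNA was amplified with CEL-seq, which reads the 3' ends of mRNAs and tags each well with a barcode. All 96 wells recurred on at least 2 plates, so a barcode names a well and not a cell. The replicate is the plate. Nothing says that plates came from separate clutches, so the spread behind each p-value may be technical. The gene tdrd6a itself was not analysed here.

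Zebrafish primordial germ cells are set aside by germ plasm, a cluster of maternal RNA and protein granules that a few cells of the cleaving embryo inherit. Tdrd6a, a Tudor domain protein, sits in these granules, and the study's title concerns its part in bringing germ plasm mRNAs into the germ cells. At 3.5 hpf the embryo is a blastula in which most RNA is still maternal and the zygotic genome is being switched on. The comparison therefore asks what the sorted mutant cells carried at the earliest stage sampled.

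A value of the table is a whole number with 0.1 added. The number without the 0.1 is called transcripts here, although it is not stated whether it counts molecules or reads. The table holds 1017 genes, and 78.8% of its values in these cells were 0 transcripts. Transcripts per cell averaged 340.3 ± 18.6 over the mutant plates and 364.1 ± 8.03 over the wild-type plates (SD, n = 5 and 4), with a two-sided exact permutation p of 0.0635. Genes detected per cell averaged 210.5 ± 15.3 on mutant plates and 227.4 ± 3.87 on wild-type plates (exact permutation p = 0.0317), where 5 against 4 plates allow no p below 0.0159. After each cell was thinned to 200 transcripts the averages were 142.4 ± 6.75 on mutant plates and 147.6 ± 4.56 on wild-type plates (exact permutation p = 0.222). The p-values adjusted over these 3 tests were 0.0952, 0.0952 and 0.222, so none passed 0.05. Depth here means what a cell held in the 1017 listed genes, since the size of its whole library is not known here. Mutant plate 1 was the shallowest in this sense, at 184.8 genes per cell. Its 10 most abundant genes, led by the mitochondrial mt-co1 and mt-co2, took 24.4% of its transcripts. Without it the difference in genes per cell was −10.4 (exact permutation p = 0.0571, where 4 against 4 plates allow none below 0.0286). Detection depends on depth, so most differences in shares of cells described below are also given after thinning. Thinning matched the total of transcripts and not the number of genes. It left out 3 cells of mutant plate 1 and no wild-type cell. It also removed transcripts from cells of both genotypes, so shares can fall after thinning whatever the depth.

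**Figure D1:**
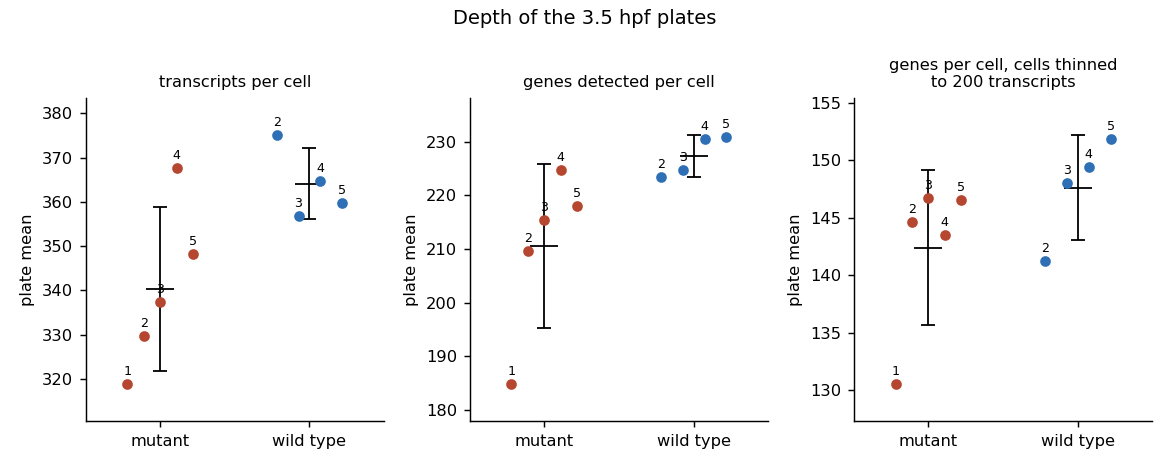
Depth of the 9 plates at 3.5 hpf over the 1017 listed genes. Panels give the plate mean per cell of transcripts (left), genes detected (middle) and genes detected after thinning to 200 transcripts (right). Each point is a plate with its number, mutant left and wild type right, and bars give mean ± SD; the vertical axes do not start at 0. Mutant plate 1 is lowest in every panel, at 184.8 genes per cell before and 130.6 after thinning.

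The sorted cells were checked against defining markers, given as summed transcripts per cell in a plate. The 8 germ cell markers (vasa, nanos3, dnd, ca15b, tdrd7, gra, dazl and piwil1) summed to 0.754 to 0.985 on mutant plates and 1.21 to 1.76 on wild-type plates; 7 of them are the germ plasm genes compared below. Of the cells, 116 of 264 mutant and 79 of 201 wild-type cells had no transcript of those 7 genes, so the markers place only part of the cells as germ cells, and a missing marker cannot be told apart from a missed one. The 7 listed keratin and ictacalcin markers of the enveloping layer and epidermis reached at most 0.514 on mutant plates and 0.357 on wild-type plates. A wider list of 15 epidermis and enveloping layer genes, which adds surface genes such as epcam and cldnd, summed to 3.59, 4.97, 5.76, 3.69 and 4.06 on mutant plates 1 to 5, against 2.9, 2.35, 2.95 and 2.64 on wild-type plates 2 to 5. The plates of the genotypes did not overlap, and the list took 1.3% ± 0.294 of transcripts on mutant plates and 0.744% ± 0.0652 on wild-type plates. Its 3 tested genes (epcam, cldnd and cd9b) were all positive with 0 passing. Without epcam and cldnd the sum was 0.197 to 0.797 on mutant plates and 0.258 to 0.643 on wild-type plates, which overlapped. Wild-type plate 1 held 7 transcripts per cell of the wider list, above every other plate. Mesoderm markers (tbx16, msgn1) reached 0.115 on mutant plates and 0.163 on wild-type plates, and apoa1b and apoeb of endoderm and yolk syncytial layer 0.351 on mutant plates and 0.357 on wild-type plates. Markers of muscle, neurons and blood were at 0.0714 or below on every plate, with mylpfa, tnnc2, hbae1 and hbbe3 at 0 in all 465 cells, which allows a share of up to 0.645% of cells with a transcript (3 cells, counting error only).

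The 7 germ plasm mRNAs other than h1m, summed, were fewer per cell on each of the 5 mutant plates than on each of the 4 wild-type plates kept. With h1m included the sum overlapped, at 3.77 to 11.5 transcripts per cell on mutant plates and 4.03 to 6 on wild-type plates. It then averaged higher on mutant plates, at 7.06 against 4.66. No single one of the 8 genes separated the plates or passed the test, and dazl averaged 0.0797 transcripts per cell on mutant plates and 0.065 on wild-type plates. The germ plasm list held 8 genes: vasa, a DEAD-box RNA helicase; nanos3, a translational repressor; dnd, an RNA-binding protein that shields germ cell mRNAs; dazl, an RNA-binding activator of translation; tdrd7, a second Tudor domain protein; gra (granulito), whose product is found in germ granules; ca15b, a carbonic anhydrase transcribed in germ cells; and h1m, the maternal linker histone. Of the 8, 6 were tested in the plate means and all 8 in the shares of cells. The test was limma on log2 of the plate mean plus 0.2 transcripts, or on the share of cells in percentage points, with Benjamini-Hochberg adjustment over all genes tested and a threshold of 0.05. Over all genes 0.306% of 653 passed in the means (2 genes) and 0.406% of 739 in the shares (3 genes), and 0 germ plasm genes were among them. At an unadjusted p under 0.05 the counts were 81 genes in the means (67 lower on mutant plates) and 94 in the shares (73 lower). For comparison, 5% of the genes tested would be 32.65 in the means and 36.95 in the shares.

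In the plate means 5 of the 6 germ plasm genes had a negative difference, with a median of −0.28, beside 65.5% of all tested genes and a median of −0.11. In the shares 7 of the 8 were negative with a median of −3.94 percentage points, beside 65.2% and −2.16 points over all genes. Most listed genes therefore lay on the negative side as most germ plasm genes did.

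For vasa, 14.9%, 8.96%, 10.9%, 9.84% and 0% of cells on mutant plates 1 to 5 had a transcript, against 16.7%, 32.7%, 13.6% and 21.4% on wild-type plates 2 to 5. The top mutant plate lay above the lowest wild-type plate, and every other mutant plate lay below all wild-type plates. Exact Clopper-Pearson 95% intervals, which cover counting error only, reach 20.6% for the 0 of 16 cells of mutant plate 5 (18.8% by the limit of 3 cells used elsewhere). The 14.9% of mutant plate 1 (74 cells) has an interval of 7.66% to 25%, and the 21.4% of wild-type plate 5 (14 cells) one of 4.66% to 50.8%. The share averaged 8.91% ± 5.47 on mutant plates and 21.1% ± 8.35 on wild-type plates (n = 5 and 4), a difference of −12.2 points with a 95% interval of −20.9 to −3.5 (limma adjusted p = 0.249). With cells thinned to 200 transcripts it was −9.17 points. Mean vasa transcripts per cell were 0.0974 ± 0.0628 on mutant plates and 0.243 ± 0.128 on wild-type plates, a log2 difference of −0.56 (SE 0.21, limma adjusted p = 0.302).

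For dnd, 5.41%, 5.97%, 4.35%, 1.64% and 0% of cells on mutant plates 1 to 5 had a transcript, against 8.33%, 16.3%, 18.2% and 0% on wild-type plates 2 to 5. The 3 larger wild-type plates lay above all mutant plates, while wild-type plate 5, with 0 of 14 cells and a limit of 21.4% (3 cells), did not. The averages were 3.47% ± 2.56 on mutant plates and 10.7% ± 8.32 on wild-type plates, a difference of −7.24 points (limma adjusted p = 0.347) that was −4.51 points after thinning.

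Detection of the Tudor domain gene tdrd7 was 6.76%, 13.4%, 6.52%, 9.84% and 6.25% of cells on mutant plates 1 to 5, against 19.4%, 10.2%, 6.06% and 21.4% on wild-type plates 2 to 5. Its germ granule companion gra was found in 12.2%, 5.97%, 10.9%, 8.2% and 6.25% of cells on mutant plates 1 to 5, against 9.72%, 10.2%, 15.2% and 21.4% on wild-type plates 2 to 5. Plates overlapped for both genes, which averaged 8.56% (tdrd7) and 8.69% (gra) over the mutant plates and 14.3% and 14.1% over the wild-type plates (limma adjusted p = 0.501 and 0.509). After thinning the differences were −6.36 points for tdrd7 and −4.23 points for gra.

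Detection of nanos3 was 4.05%, 16.4%, 13%, 9.84% and 12.5% on mutant plates 1 to 5, against 11.1%, 18.4%, 10.6% and 7.14% on wild-type plates 2 to 5, and that of dazl 2.7%, 8.96%, 4.35%, 8.2% and 12.5% on the mutant plates, against 2.78%, 4.08%, 10.6% and 7.14% on the wild-type plates. Both genes had widely mixed plates, and their averages were 11.2% (nanos3) and 7.34% (dazl) over mutant plates and 11.8% and 6.15% over wild-type plates. Thinned differences were −0.341 points for nanos3 and 2.59 points for dazl. The most widely detected germ plasm gene after h1m was ca15b, in 29.7%, 23.9%, 28.3%, 18% and 43.8% of cells on mutant plates 1 to 5, against 29.2%, 30.6%, 36.4% and 28.6% on wild-type plates 2 to 5. The wild-type plates all lay within the span of the mutant plates. The difference was −2.45 points with a 95% interval of −14 to 9.07, and 1.43 points after thinning.

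The germline PIWI genes piwil1 and piwil2, which bind piRNAs, were too low to test, at 0 to 0.109 transcripts per cell on mutant plates and 0.0139 to 0.0714 on wild-type plates. Their meiotic companion on the list, sycp3 of the synaptonemal complex, had no transcript in the 465 cells.

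**Figure D2:**
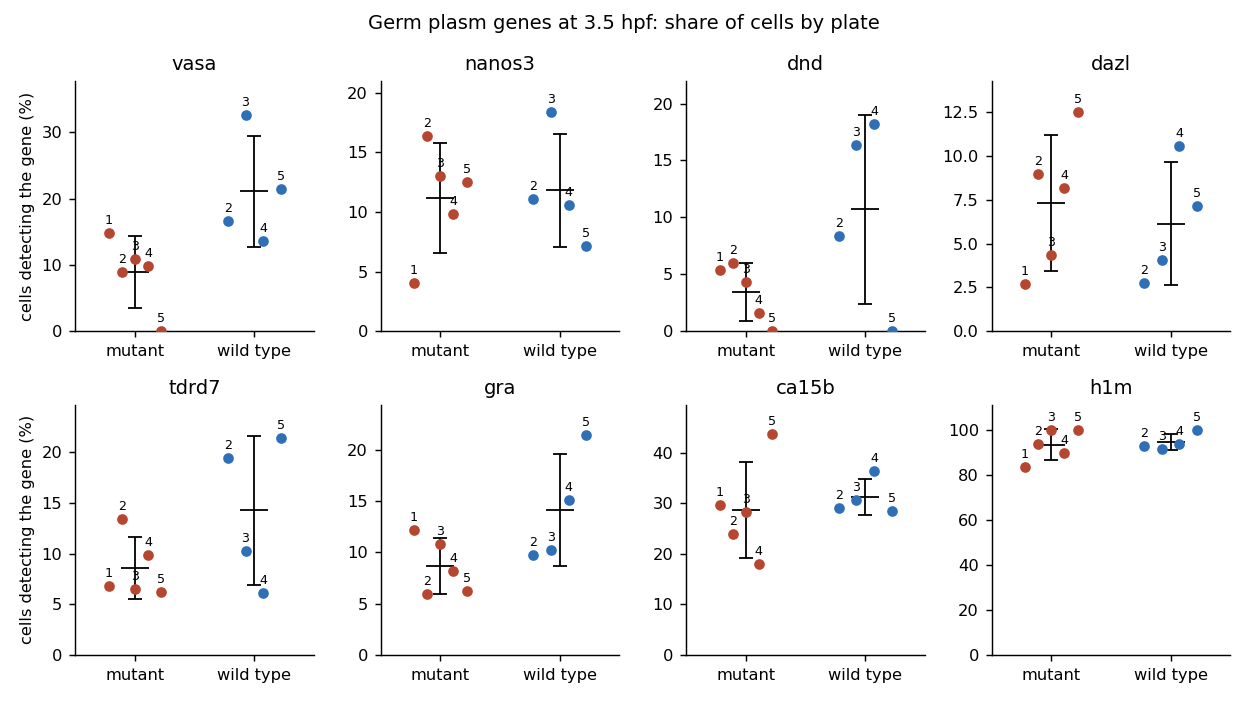
Share of cells (%) with at least 1 transcript of each of 8 germ plasm genes at 3.5 hpf, with 1 numbered point per plate, mutant left and wild type right, and bars for mean ± SD over 5 and 4 plates. Panels have their own scales from 0. All 8 panels overlap. For vasa 4 of 5 mutant points lie below all wild-type points (averages 8.91% and 21.1%), and for dnd all mutant points lie below wild-type plates 2 to 4 but not below wild-type plate 5, at 0% (averages 3.47% and 10.7%).

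The maternal linker histone h1m behaved apart from the other germ plasm genes. Mutant plates 1 to 5 carried 4.11, 10.5, 10.3, 3.05 and 2.94 h1m transcripts per cell, against 2.74, 2.57, 2.94 and 4.86 on wild-type plates 2 to 5. Mutant plates 2 and 3 stood far above all others, and the remaining 3 mutant plates lay within the wild-type range. The log2 difference was 0.70 (SE 0.36, limma adjusted p = 0.426). With the highest 10% of cells of each plate cut it was 0.28 (limma adjusted p = 0.692). A transcript of h1m was detected in 93.6% ± 6.9 of mutant cells and 94.7% ± 3.63 of wild-type cells. The difference in shares was 4.44 points after thinning. The left-out wild-type plate 1 carried 14.5 h1m transcripts per cell, a mean over only 4 cells. No wild-type plate kept was above 4.86. Because of h1m, the 8 genes together took 2.1% ± 1.22 of the transcripts on mutant plates and 1.28% ± 0.26 on wild-type plates, with overlapping plates. Without h1m the 7 genes took 0.257% ± 0.0394 on mutant plates and 0.382% ± 0.074 on wild-type plates, and the difference turned to −0.124 percentage points.

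Summed over those 7 genes, mutant plates 1 to 5 held 0.811, 0.97, 0.978, 0.721 and 0.875 transcripts per cell, against 1.29, 1.73, 1.38 and 1.14 on wild-type plates 2 to 5. The plates of the genotypes did not overlap. Each genotype's sum was led by ca15b, at 0.357 ± 0.109 transcripts per cell on mutant plates and 0.467 ± 0.0822 on wild-type plates. No test was made on the sum, since its genes were chosen with results of these data known. Wild-type plate 1, with 0.75 transcripts per cell over its 4 cells, would fall among the mutant plates. Separated plates were not particular to the germ plasm sum. The wider epidermis list, given above, and the small-subunit ribosomal list, given below, had the higher sums on all mutant plates. The cell cycle list had the lower ones, at 10.6 to 17.4 transcripts per cell, against 17.6 to 18.3 on wild-type plates. As a percentage of transcripts the cell cycle plates overlapped, at 3.33% to 4.99% on mutant plates and 4.82% to 5.13% on wild-type plates. The part of these lists in the germ plasm sum was not tested.

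The number of different germ plasm genes in a cell also separated the plates of the genotypes before thinning, though not after it. Of the 7 genes, a cell had on average 0.757, 0.836, 0.783, 0.656 and 0.812 on mutant plates 1 to 5, against 0.972, 1.22, 1.11 and 1.07 on wild-type plates 2 to 5. After thinning the averages were 0.377 to 0.582 on mutant plates and 0.5 to 0.755 on wild-type plates, which overlapped. Cells with 3 or more of the 7 genes were 11 of 264 on mutant plates and 26 of 201 on wild-type plates. By plate they were 2.7%, 7.46%, 4.35%, 3.28% and 0% on mutant plates, against 9.72%, 18.4%, 13.6% and 7.14% on wild-type plates. Mutant plate 2 lay just above wild-type plate 5, where a single cell of 14 met the count, and the other mutant plates lay below all wild-type plates. The count of 3 or more of the 7 genes was not made on thinned cells, so depth may bear on it. Cells with none of the 7 made up 42% ± 7.08 on mutant plates and 33.9% ± 14.1 on wild-type plates, with overlapping plates. After thinning they made up 63.6% ± 7.56 on mutant plates and 56.1% ± 6.04 on wild-type plates, again with overlap. No mutant cell had more than 4 of the 7 genes, and the richest wild-type cell had 6.

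**Figure D3:**
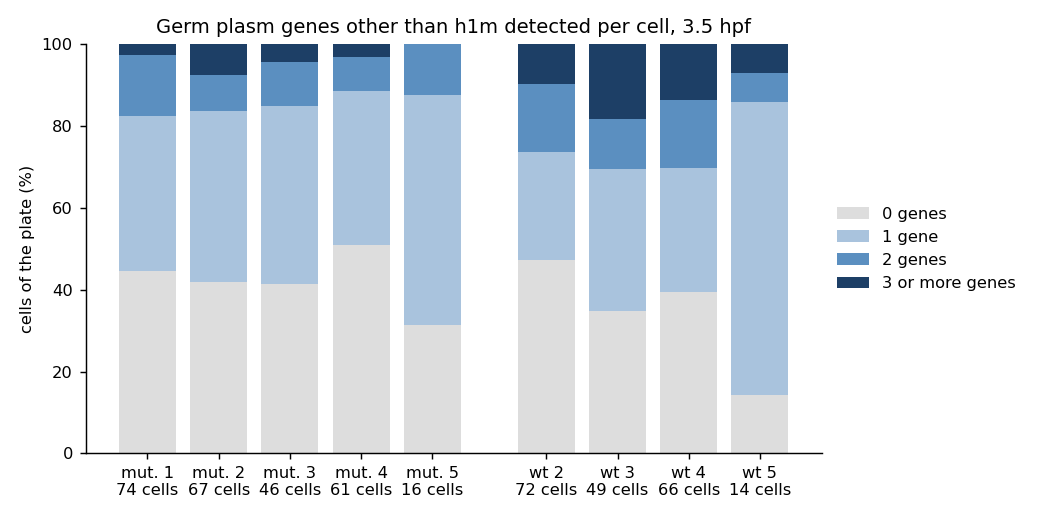
Share of the cells (%) of each plate at 3.5 hpf in which 0, 1, 2 or 3 or more of 7 germ plasm genes (all but h1m) were detected, mutant plates left and wild-type plates right, with the number of cells under each bar. The darkest segment, 3 or more genes, is 0% to 7.46% on mutant plates and 7.14% to 18.4% on wild-type plates.

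With 3 or more of all 8 genes as the count, cells made up 14.3% ± 2.4 on mutant plates and 25.4% ± 7.65 on wild-type plates. The plates overlapped, at 11.5% to 17.6% on mutant plates and 14.3% to 30.6% on wild-type plates. Thinned, they made up 5.71% ± 3.64 on mutant plates and 14.5% ± 4.42 on wild-type plates, with no overlap of plates (0% to 8.96% on mutant plates, 9.72% to 20.4% on wild-type plates). Wild-type plate 1 had 0% of its 4 cells in this count, thinned or not. This is a description of chosen genes, and the thinned cells hold few transcripts of each. Thinning was a single random draw, and the thinned shares of mutant plate 2 (8.96%) and wild-type plate 2 (9.72%) lay close together. Another draw could make the plates overlap.

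Beyond the germ plasm, 3 genes passed the threshold: zgc:100951 was lower on mutant plates in means and shares, zgc:113886 was lower in shares only, and rps16 was higher in both. For zgc:100951 (ENSDARG00000111442) and zgc:113886, which matched no symbol, the sources used here give no function, and none is assigned. By direction these are 0.153% of the 653 genes higher and 0.153% lower in the means, and 0.135% of the 739 higher and 0.271% lower in the shares.

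Mutant plates 1 to 5 carried 0.149, 0.104, 0.087, 0.508 and 0.438 zgc:100951 transcripts per cell, against 0.917, 1.29, 0.667 and 0.571 on wild-type plates 2 to 5. All mutant plates lay below all wild-type plates, with mutant plates 4 and 5 close to the lowest of them. The log2 difference was −1.27 (SE 0.27, limma adjusted p = 0.0375). A transcript was found in 12.2%, 8.96%, 8.7%, 41% and 31.2% of cells on the mutant plates, against 51.4%, 51%, 45.5% and 50% on the wild-type plates. The wild-type shares lay close together, and the mutant plates split into 3 low and 2 intermediate ones. The share averaged 20.4% ± 14.8 on mutant plates and 49.5% ± 2.74 on wild-type plates, −29.1 points with a 95% interval of −41.8 to −16.3 (limma adjusted p = 0.0281). Cells that had the transcript held 1 to 1.4 copies on average in mutant plates and 1.14 to 2.52 in wild-type plates, with at most 3 in a mutant cell and 8 in a wild-type cell. The call did not survive thinning, where the difference was −16.7 points (limma adjusted p = 0.363). In the means it was also lost with cells rescaled to the same total, where the log2 difference was −1.21 (limma adjusted p = 0.0638). In the means it was lost without mutant plate 1, 2 or 3 (limma adjusted p = 0.402, 0.185 and 0.123) and without wild-type plate 2, 3, 4 or 5 (0.166, 0.331, 0.167 and 0.0729), and in the shares without mutant plate 1, 2 or 3 (0.159, 0.124 and 0.128) or wild-type plate 3 (0.195).

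Mutant plates 1 to 5 carried 0.297, 0.343, 0.174, 1.11 and 0.312 zgc:113886 transcripts per cell, against 1.33, 2.12, 1.15 and 0.857 on wild-type plates 2 to 5. Mutant plate 4 lay inside the wild-type range and the other mutant plates lay well below it. The log2 difference of −1.36 (SE 0.31) did not pass (limma adjusted p = 0.12), and without mutant plate 4 it was −1.65 (limma adjusted p = 8.28e-05). Its share of cells was 21.6%, 31.3%, 17.4%, 59% and 25% on the mutant plates, against 65.3%, 75.5%, 53% and 57.1% on the wild-type plates. This gave averages of 30.9% ± 16.5 on mutant plates and 62.7% ± 9.92 on wild-type plates, a difference of −31.9 points with a 95% interval of −46.5 to −17.3 (limma adjusted p = 0.0301). Thinned, the difference was −23.5 points (limma adjusted p = 0.22). With cells rescaled to the same total the log2 difference in the means was −1.29 (limma adjusted p = 0.194). The call in the shares was lost without mutant plate 1, 2 or 3 (limma adjusted p = 0.159, 0.0964 and 0.136) or wild-type plate 3 (0.235).

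Both zgc genes were detected together in 4.05%, 5.97%, 2.17%, 31.1% and 18.8% of cells on mutant plates 1 to 5, against 40.3%, 44.9%, 30.3% and 35.7% on wild-type plates 2 to 5. Mutant plate 4 lay inside the wild-type range for the pair, as it did for zgc:113886 alone, and the other mutant plates lay below that range. Both genes were taken for their lower shares on these same plates, so the lower joint share is not a separate result. The pair was not counted in thinned cells. Neither had any transcript in 62 mutant cells at 8 hpf or 156 at 24 hpf, which allows shares of up to 4.84% and 1.92% of cells. In wild-type cells zgc:100951 also had none in 95 cells at 8 hpf and 196 at 24 hpf (up to 3.16% and 1.53%), and zgc:113886 had 3 transcripts at 8 hpf and none at 24 hpf. Both genes were thus near or at 0 by 8 hpf in both genotypes.

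The small-subunit ribosomal protein gene rps16 went the other way. Mutant plates 1 to 5 carried 0.365, 0.328, 0.37, 0.377 and 0.625 rps16 transcripts per cell, against 0.125, 0.143, 0.0758 and 0.143 on wild-type plates 2 to 5. Every mutant plate lay above every wild-type plate, and mutant plate 5 was the highest. The log2 difference was 0.92 (SE 0.19, limma adjusted p = 0.0375). Its transcript was found in 82 of 264 mutant cells and 21 of 201 wild-type cells, and the plate shares averaged 33.5% ± 9.9 on mutant plates and 11.3% ± 2.81 on wild-type plates. The difference was 22.2 points with a 95% interval of 11.6 to 32.8 (limma adjusted p = 0.031). After thinning it was 14.9 points (limma adjusted p = 0.363). With cells rescaled to the same total the log2 difference in the means was 0.97 and still passed (limma adjusted p = 0.0299). In the means the call was lost without any 1 plate other than mutant plate 4: limma adjusted p was 0.103, 0.0859, 0.123 and 0.0511 without mutant plates 1, 2, 3 and 5, and 0.11, 0.176, 0.177 and 0.0724 without wild-type plates 2 to 5. In the shares it was lost without mutant plate 1, 2 or 4 (limma adjusted p = 0.159, 0.0964 and 0.0685) or wild-type plate 2, 3 or 4 (0.0775, 0.235 and 0.212). How reads of near-identical gene copies were assigned is not stated, which leaves the level of a single ribosomal protein gene uncertain.

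**Figure D4:**
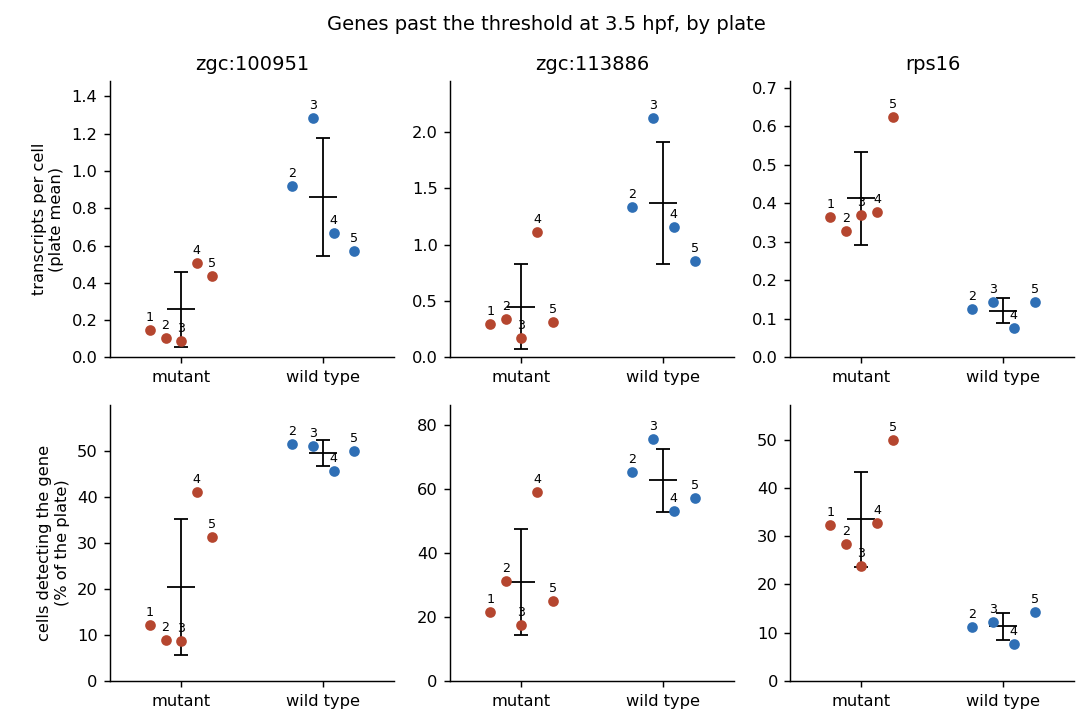
The 3 genes past the threshold at 3.5 hpf, by plate: plate mean of transcripts per cell (top) and share of cells with at least 1 transcript in % (bottom), mutant left and wild type right, with mean ± SD. Points carry the plate number. For zgc:100951 and rps16 the genotypes do not overlap, and for zgc:113886 mutant plate 4 (1.11 transcripts per cell) lies among the wild-type plates.

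The 3 calls rested on few plates and on the settings. Across the alternatives rps16 passed in 9 of 22 in the means and 5 of 18 in the shares, zgc:100951 in 9 of 22 and 8 of 18, and zgc:113886 in 3 of 22 and 9 of 18. None of them turned its direction in any alternative. Adding the 4 cells of wild-type plate 1, as a plate of equal weight, left 0 calls in the means and 0 in the shares.

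Whether a genotype difference at 3.5 hpf differed from that at later stages was tested in a fit of plates of 3.5, 8 and 24 hpf. Over 719 genes 0 (0%) passed against 8 hpf and 0 (0%) against 24 hpf, so nothing is called particular to 3.5 hpf. At an unadjusted p under 0.05 there were 50 and 42 genes, where 5% of the genes tested would be 35.95. The change of the genotype difference was −1.27 for zgc:100951 against 24 hpf (SE 0.33, limma adjusted p = 0.235) and 0.98 for rps16 (SE 0.32, limma adjusted p = 0.604). With no zgc:100951 transcript at 24 hpf in either genotype, its change only repeats the 3.5 hpf difference. Its spread is also shared with plates that have none, so this test cannot compare the stages for it. The rps16 level at 24 hpf was 1.35 ± 0.485 transcripts per cell on mutant plates and 1.38 ± 0.198 on wild-type plates (n = 3 and 5), and at 8 hpf 0.409 ± 0.0891 on mutant plates and 0.428 ± 0.179 on wild-type plates (n = 2 and 3). At 3.5 hpf it was 0.413 ± 0.12 on mutant plates and 0.122 ± 0.0317 on wild-type plates. The rps16 means ± SD of the genotypes lay apart at 3.5 hpf and overlapped at both later stages. Its change between stages passed in neither test, so the rps16 difference is not called particular to 3.5 hpf.

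Called or not, genes whose plates did not overlap between genotypes were 20 lower (3.06%) and 5 higher (0.766%) of 653 in the means, and 27 lower (3.65%) and 6 higher (0.812%) of 739 in the shares.

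The uncalled genes on the negative side include patl1, a decapping and P-body protein, at 0.166 ± 0.0736 transcripts per cell on mutant plates and 0.368 ± 0.097 on wild-type plates. For prmt1, a protein arginine methyltransferase, the levels were 0.529 ± 0.0905 on mutant plates and 0.89 ± 0.158 on wild-type plates. For hnrnpab, a heterogeneous nuclear ribonucleoprotein, they were 0.696 ± 0.083 on mutant plates and 1.08 ± 0.0919 on wild-type plates. The makorin gene mkrn4 had 0.735 ± 0.202 on mutant plates and 1.1 ± 0.0657 on wild-type plates. These 4 genes had limma adjusted p-values of 0.3, 0.3, 0.302 and 0.336 in the means, and their plates did not overlap.

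Further genes that the naming rule took were, in the means, ranbp9, a scaffold protein, and marcksl1b, a membrane-bound regulator of actin, and in the shares id1, an inhibitor of bHLH transcription factors, lgmn, a lysosomal protease, trappc6b, a vesicle tethering subunit, and zgc:113424, to which no function is given here. Of these id1 was detected in 9.79% ± 4.76 of mutant cells and 21.9% ± 4.64 of wild-type cells, and lgmn in 10.8% ± 3.18 of mutant cells and 23.4% ± 8.42 of wild-type cells. After thinning the id1 difference of −12.1 points was −11.8, whereas the lgmn difference of −12.6 points was −1.98 (8.08% ± 1.72 of mutant cells and 10.1% ± 3.02 of wild-type cells). Tested in the means were 42 large-subunit and 35 small-subunit ribosomal protein genes among 653 genes. In the shares they were 46 and 36 among 739 genes. On the positive side 4 of the 5 non-overlapping genes in the means were ribosomal protein genes (rpl37, rpl34, rps14 and rps16), and 4 of the 6 in the shares (rpl37, rpl6, rps16 and rps27a). The others were, in both, fermt2, an integrin activator, at 0.155 ± 0.019 transcripts per cell on mutant plates and 0.0816 ± 0.0339 on wild-type plates, and in the shares rrp1, a ribosome biogenesis factor, in 16.2% ± 2.99 of mutant cells and 9.96% ± 2.61 of wild-type cells (6.29 points, and 5.11 after thinning).

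Genes of the ribosome lay mainly on the positive side, where all genes together lay mainly on the negative one. Of 35 tested small-subunit genes 29 had a positive log2 difference and 1 passed (rps16), with a median of 0.15, and of 42 large-subunit genes 32 were positive and 0 passed, with a median of 0.11. Over all 653 genes 34.5% were positive and the median was −0.11. The small-subunit genes together took 4.35% ± 0.283 of transcripts on mutant plates and 3.34% ± 0.246 on wild-type plates. Their sum was 15.2, 14.4, 13.8, 16.2 and 14.3 transcripts per cell on mutant plates 1 to 5, against 13, 11.9, 13 and 10.8 on wild-type plates 2 to 5. All mutant plates lay above all wild-type plates, on a list chosen with results known and therefore untested. The large-subunit sum overlapped, at 12.6 to 20.2 on mutant plates and 14.1 to 16 on wild-type plates. After rps16 the examples of smallest p were rps18 (0.437 ± 0.0562 transcripts per cell on mutant plates and 0.232 ± 0.101 on wild-type plates), rplp1 (0.366 ± 0.143 on mutant plates and 0.164 ± 0.114 on wild-type plates) and rpl37 (0.556 ± 0.118 on mutant plates and 0.324 ± 0.104 on wild-type plates). None of the 3 passed (limma adjusted p = 0.3, 0.302 and 0.302). The medians of both lists were positive in all 22 alternatives, between 0.0564 and 0.34 for the small and 0.0522 and 0.31 for the large subunit.

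The 11 mitochondrially encoded genes, which make subunits of the respiratory chain, divided 7 positive to 4 negative with 0 passing, with a median of 0.16. Their sum was 51.4 transcripts per cell on mutant plate 1 and 20.7 to 35.1 on the other mutant plates, against 23.6 to 31.5 on the wild-type plates. Single members went opposite ways: mt-atp8 had 0.245 ± 0.227 on mutant plates and 0.0469 ± 0.0501 on wild-type plates, and mt-nd2 had 1.11 ± 0.552 on mutant plates and 1.79 ± 0.499 on wild-type plates. Nuclear genes of the respiratory chain divided 4 positive to 10 negative with 0 passing and a median of −0.11, that of all genes.

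Splicing and hnRNP genes lay mainly on the negative side. Of 36 tested, 32 were negative and 0 passed, with a median of −0.21. Examples are hnrnpab, above, and hnrnpa0b, at 0.532 ± 0.212 transcripts per cell on mutant plates and 0.823 ± 0.0454 on wild-type plates (limma adjusted p = 0.315). The 12 tested genes of migration and the cell cortex were all negative with 0 passing and a median of −0.22. The first of them, marcksl1b, had 0.203 ± 0.0871 on mutant plates and 0.417 ± 0.106 on wild-type plates (limma adjusted p = 0.3). Mutant plate 1, the shallowest, weighed on the splicing list and changed the migration list little. Without it 26 of the 36 splicing genes were negative with a median of −0.11, where the median of all genes was −0.07, and 11 of the 12 migration genes were negative with a median of −0.19. The part of its depth in these counts was not tested.

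The 3 genes of the pluripotency list, among them nanog, which helps to switch on the zygotic genome, were all negative and 0 passed. Of these nanog had 1.21 ± 0.377 transcripts per cell on mutant plates and 1.57 ± 0.129 on wild-type plates, and sox3 0.0853 ± 0.0829 on mutant plates and 0.193 ± 0.11 on wild-type plates. Of 23 cell cycle genes 20 were negative and 0 passed, at the median of all genes, −0.11. The sum of the list, given above, was lower on all mutant plates than on all wild-type plates kept. Single genes were counted again with other sets of plates. Without mutant plate 1 the positive ones were 8 of 23 with a median of −0.036, and with wild-type plate 1 added they were also 8, with a median of −0.0673. The leading one, rrm2, a ribonucleotide reductase subunit, had 2.04 ± 0.525 on mutant plates and 3.04 ± 0.468 on wild-type plates, and CCNA2, a cyclin, 0.483 ± 0.233 on mutant plates and 0.695 ± 0.142 on wild-type plates. Of 8 oocyte and maternal genes 6 were negative with 0 passing and a median of −0.12, which was −0.0165 without mutant plate 1 and 0.0585 with wild-type plate 1 added. They include zar1l, a relative of the zygote arrest factor, at 0.267 ± 0.155 on mutant plates and 0.454 ± 0.149 on wild-type plates, and wee2, an oocyte kinase that restrains the cell cycle, at 0.514 ± 0.116 on mutant plates and 0.75 ± 0.119 on wild-type plates. Chromatin genes (6 positive, 11 negative), translation factors (8 and 10) and chaperones (5 and 5) had medians of −0.08, −0.03 and −0.06 and 0 calls each. Across the alternatives the medians reached 0.0334 for translation factors and 0.117 for chaperones, so these lists have no settled side. The 3 tested growth arrest genes of the p53 list, among them ccng1 and btg2, were negative with 0 passing.

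**Figure D5:**
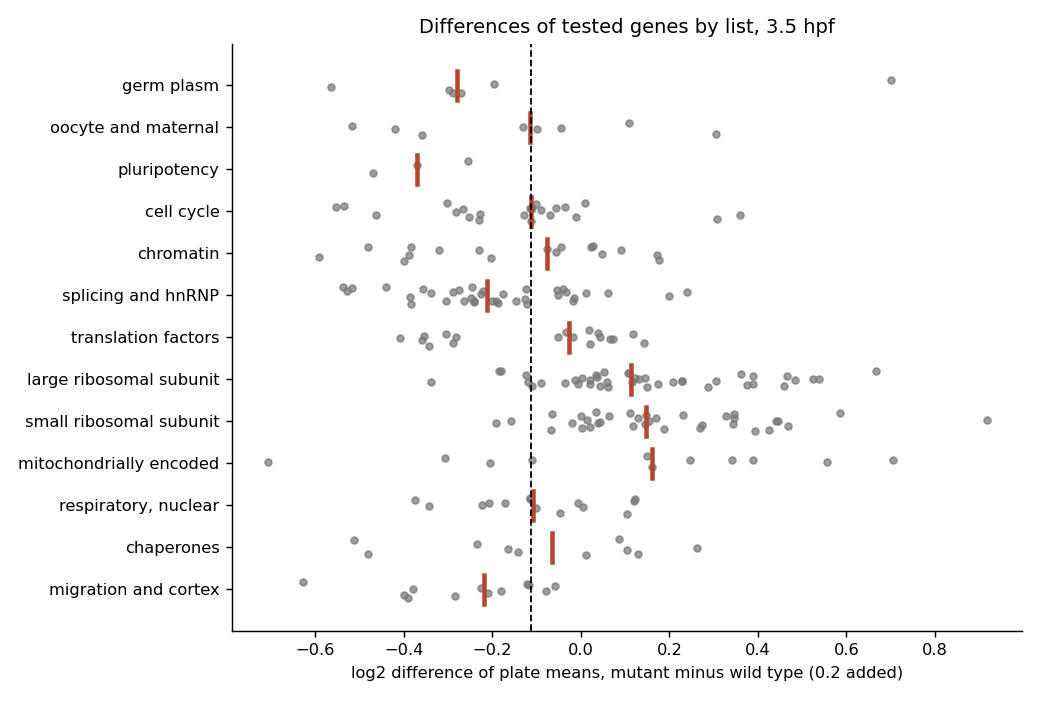
Log2 difference of plate means (mutant minus wild type, 0.2 transcripts added) of each tested gene, by list, at 3.5 hpf; points are genes, thick marks list medians and the dashed line the median of all 653 tested genes (−0.11). Points are spread vertically for legibility only. Ribosomal lists (medians 0.11 and 0.15) lie right of the dashed line, and the splicing (−0.21) and migration (−0.22) lists left of it.

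Among cell surface genes, epcam, an epithelial adhesion protein supplied maternally, followed the plates of h1m. Mutant plates 1 to 5 carried 0.851, 2.43, 2.43, 0.787 and 0.375 epcam transcripts per cell, against 0.542, 0.531, 0.606 and 0.286 on wild-type plates 2 to 5. Mutant plates 2 and 3 were the highest, as for h1m, and mutant plate 5 fell inside the wild-type range. The log2 difference was 0.97 (SE 0.45, limma adjusted p = 0.403), the largest positive difference of all 653 genes but with a wide spread. In the shares of cells the epcam difference was 22.4 points (limma adjusted p = 0.249), and 17.7 points after thinning (limma adjusted p = 0.459). It passed in 1 of 18 alternatives, when mutant plate 5 was left out (29 points unthinned, limma adjusted p = 0.033). With wild-type plate 1 added it was 14.4 points (limma adjusted p = 0.698). Wild-type plate 1, with 3.25 epcam transcripts per cell, was again close to mutant plates 2 and 3. A claudin-family gene, cldnd, had 2.52 ± 0.6 transcripts per cell on mutant plates and 1.85 ± 0.283 on wild-type plates (limma adjusted p = 0.456).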

How the data were processed

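The authors deposited a table of 1017 genes by 1203 cells, whose values are treated as signal: whole numbers with 0.1 added (tolerance 1e-06), with no normalization stated. BWA and the build Zv9 are named, per the submitters' processing notes, without versions; no source used here gives the counting or the cell filters. For 7 genes the table writes a prefix "germ" (germvasa), dropped here. Of the names 947 matched a RefSeq (assembly GRCz12tu, names only) or Ensembl symbol. 217 cell columns were not used: those of a plate of mixed stages, a plate with heterozygous wells, and 2 weeks.

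The 0.1 was subtracted and values were averaged per plate. Limma 3.58.1 in R 4.3.3 (trend, robust) was run on log2 of plate means plus 0.2 (genes averaging 0.1 or more, 653) and on shares of cells (5% to 95%, 739), over 5 mutant and 4 wild-type plates alone with 7 residual degrees of freedom. Fold changes of low genes are understated. Plate summaries used exact permutation tests (scipy 1.17.1). Scripts were tested on simulated data. Named genes were all germ plasm and piRNA genes, called genes, up to 8 non-overlapping genes of smallest p per direction and test, and 2 per list; 1 gene so named is not reported here. The comparison, lists and alternatives were chosen with earlier results of these data known. Summed transcripts per plate were 5036 to 27004, and small plates of 14 and 16 cells weigh as much as large ones.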

Additional observations from a re-analysis of the deposited data

Results flagged for a closer look

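In groups of 4 or 5 plates, single plates stood far from the nearest of the others in 10 of 116 groups of values examined. Chance alone gives such a flag in about 1 of 20 groups. Mutant plate 5 had 0.625 rps16 transcripts per cell, where the next mutant plate had 0.377, and 0.0625 of hspd1, a mitochondrial chaperone, where the next had 0.162. Mutant plate 4 had 1.11 zgc:113886 transcripts per cell, where the next had 0.343, and 1.51 of the elongation factor eef2b, where the next had 0.938. Mutant plate 1 had 0.284 rpl34 transcripts per cell, where the next had 0.188, and 130.6 genes per thinned cell, where the next had 143.5.

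Of the wild-type plates, plate 5, with 14 cells, had 4.86 h1m transcripts per cell, where the next had 2.94, and 0.357 of sox3, where the next had 0.152. Wild-type plate 2 had 0.222 of the initiation factor eif2s3, where the next had 0.143, and wild-type plate 4 had 1 transcript of mkrn4 per cell, where the next had 1.12.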

How the results depend on the processing

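The 2 calls in the plate means became 0 with wild-type plate 1 added, with a pseudocount of 0.1, with no filter on low genes and with cells thinned, and 1 higher and 0 lower with cells rescaled to the same total; leaving out 1 plate at a time gave 0 to 3. The 3 calls in the shares became 0 with wild-type plate 1, thinned cells, the arcsine square root scale or no filter, 1 with detection at 2 or more transcripts and 9 with all 6 groups sharing the spread (1 higher, 8 lower); leaving out 1 plate gave 0 to 5. With the replicate block (plate number as a block) there were 0 calls in the means and 0 in the shares. The deviations of same-numbered plates correlated at −0.165 to −0.005 over 4 pairs, and 0 plates matched their own number best. The best matches reached only 0.007 to 0.155. No pairing by number was seen, but so few pairs and such low correlations cannot settle whether same-numbered plates belong together. The difference in transcripts per cell became −30.2 with wild-type plate 1 and passed an unadjusted exact permutation test, as it did without mutant plate 4 (p = 0.0286), and ranged from −30.5 to −18.4 with 1 plate left out. That in genes per cell, under 0.05 only before adjustment, became −5.22 with thinned cells (exact permutation p = 0.222) and −17.5 without both plates under 20 cells, an alternative chosen after seeing the data (p = 0.114, where 4 against 3 plates allow no p below 0.0571). With 1 plate left out it was −20.4 to −10.4 (exact permutation p = 0.0286 to 0.0714). The germ plasm share difference turned to −0.124 without h1m.

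Small differences of uncalled genes changed sign. In the plate means these were nanos3 (0.0288 with the highest 10% of cells cut), ca15b (0.0743 with wild-type plate 1, 0.0252 thinned), wee2 (0.0286 with wild-type plate 1) and fabp3, a fatty acid carrier (−0.085 thinned, −0.107 weighted by cells, −0.0659 with limma voom, −0.0391 with the highest cells cut, −0.079 without both plates under 20 cells, and −0.0753 to 0.155 with 1 plate left out). In percentage points of cells they were nanos3 (1.14 with the replicate block, −2.19 to 1.55 with 1 plate left out), dazl (−0.101 to 2.67 with 1 plate left out), ca15b (3.79 with wild-type plate 1, 1.43 thinned, −6.2 to 0.227 with 1 plate left out), h1m (4.44 thinned, 1.34 with the block, −2.71 to 1.34 with 1 plate left out; 0.00523 on the arcsine scale), trappc6b (0.84 at 2 or more transcripts) and fabp3 (3.8 with wild-type plate 1, 1.44 at 2 or more transcripts, 2.05 with the block, −2.84 to 2.12 with 1 plate left out). Causes of these changes were not tested. Depth limits single genes: 1 transcript in 1 of 14 cells is a share of 7.14%.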
